A study of Homo sapiens with 18 samples.

Results

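The GIMAP genes (GTPases of the immunity-associated proteins) were followed across 18 RNA-seq libraries of GM12878, an Epstein-Barr virus-transformed human B lymphoblastoid line, in which single NF-kB subunits had been targeted. The members were chosen by gene symbol, with no threshold on a value, as the 7 rows named GIMAP1, GIMAP2, GIMAP4, GIMAP5, GIMAP6, GIMAP7 and GIMAP8 among the 17155 rows of the deposited table. The family was selected on earlier results of these same libraries, so its p-values, adjusted over all genes tested, describe where its members lie in the genome-wide fit and are not independent evidence. Cells of 5 groups had received lentiviral CRISPR guides against cRel, p50, p52, RelA or RelB, and control cells a guide with no target. Puromycin at 3 µg/ml was applied for 5 days, and the authors used immunoblots to check each targeted protein. Each group had 3 libraries labelled as biological replicates. The genotype label reads Wildtype LMP1 in all 6 groups, and no label says whether the cells of a group were 1 clone, a pool or separate transductions, so the p-values refer to the spread among these libraries and may hold technical spread alone. Values are normalised read counts, the reads of a gene divided by a size factor of its library. Library totals were between 15179664 and 37473129 reads.

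GIMAP proteins are small GTP-binding proteins of vertebrates found mostly in lymphocytes. Many are anchored to intracellular membranes, such as lysosomes, lipid droplets, mitochondria or the Golgi, through their C-terminal end, and several regulate lymphocyte survival. NF-kB is a family of dimeric transcription factors made from RelA, RelB, cRel, p50 and p52. The p50 and p52 proteins are made from the precursors encoded by NFKB1 and NFKB2 and lack the transactivation domain that RelA, RelB and cRel carry. In lymphoblastoid lines the viral membrane protein LMP1 keeps both NF-kB pathways active.

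The mRNA of the targeted subunit was checked first. NFKB1 averaged 4685 ± 56.4 normalised reads in p50 knockout cells against 7066 ± 305 in control cells, NFKB2 averaged 6320 ± 172 in p52 knockout cells against 8566 ± 138 in control cells, and RELA averaged 1368 ± 35.4 in RelA knockout cells against 2208 ± 31.6 in control cells (SD, n = 3 each). All 3 fell (adjusted p of at most 1.5e-06 in the limma fit described in the methods). For NFKB1 and NFKB2 the fall was not confined to the targeted group. NFKB1 was also lower in the RelA knockout (log2 fold change -0.46) and the libraries labelled RelB (-0.285). NFKB2 was also lower in the RelA knockout (-0.36). REL averaged 1298 ± 16.6 in the libraries labelled cRel against 1376 ± 457 in the control libraries (adjusted p = 0.96). RELB was higher in the libraries labelled RelB, at 4107 ± 170 against 3319 ± 158 in control cells (log2 fold change 0.31, adjusted p = 1.7e-04). RELB was also higher in the libraries labelled cRel (0.38), the p52 knockout (0.36) and the p50 knockout (0.23), and lower in the RelA knockout (-0.82). A guide can disrupt a protein without lowering its mRNA, so these values do not test the knockouts. Because REL and RELB mRNA was not lower in them, the groups labelled cRel and RelB are called the cRel-labelled and the RelB-labelled libraries. These names do not grade the knockouts, since the immunoblot check is stated for each targeted protein.

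The 7 genes lie in one cluster on chromosome 7 in the order GIMAP8, GIMAP7, GIMAP4, GIMAP6, GIMAP2, GIMAP1 and GIMAP5, and GIMAP6 is on the minus strand while the others are on the plus strand. Their identifiers in the deposited table are ENSG00000171115 (GIMAP8), ENSG00000179144 (GIMAP7), ENSG00000133574 (GIMAP4), ENSG00000133561 (GIMAP6), ENSG00000106560 (GIMAP2), ENSG00000213203 (GIMAP1), ENSG00000196329 (GIMAP5). Readthrough transcripts that join GIMAP1 and GIMAP5, and the pseudogene GIMAP3P, were not analysed here. Of the exonic sequence of each gene, GIMAP1 and GIMAP5 shared 69 words of 50 bases, which is 1.44% of the words of GIMAP1 and 1.12% of those of GIMAP5. No other pair shared any, so reads were separable between the other members at that length. The readthrough transcripts were left out of this comparison, and their part in the counts of GIMAP1 and GIMAP5 was not tested. The promoter windows of 4 members are shown because the values of these genes separated the groups in different ways: GIMAP8, GIMAP4 and GIMAP5 were higher in the p50 and p52 knockouts, and GIMAP7 was called higher in the p50 knockout alone. Each runs 5′ to 3′ on the plus strand from 250 bases before to 50 bases after the RefSeq start (build GRCh38.p14), at chr7:150450380-150450679, chr7:150567140-150567439, chr7:150737168-150737467 and chr7:150514622-150514921. Capitals mark matches on either strand to the kB consensus, the motif that NF-kB dimers bind, and to the ETS core GGAAGT. The searched motifs did not overlap in these windows.
GIMAP8: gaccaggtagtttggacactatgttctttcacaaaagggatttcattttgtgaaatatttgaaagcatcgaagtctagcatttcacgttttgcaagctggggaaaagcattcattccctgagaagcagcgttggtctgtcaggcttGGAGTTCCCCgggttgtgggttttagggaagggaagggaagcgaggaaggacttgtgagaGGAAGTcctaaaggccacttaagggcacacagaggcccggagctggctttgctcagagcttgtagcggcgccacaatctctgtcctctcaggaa
GIMAP4: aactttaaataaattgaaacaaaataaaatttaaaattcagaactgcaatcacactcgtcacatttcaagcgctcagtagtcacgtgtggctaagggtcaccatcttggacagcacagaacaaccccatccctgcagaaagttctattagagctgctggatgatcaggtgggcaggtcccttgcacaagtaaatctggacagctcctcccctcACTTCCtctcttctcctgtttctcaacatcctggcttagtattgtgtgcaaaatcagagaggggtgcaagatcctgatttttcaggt
GIMAP5: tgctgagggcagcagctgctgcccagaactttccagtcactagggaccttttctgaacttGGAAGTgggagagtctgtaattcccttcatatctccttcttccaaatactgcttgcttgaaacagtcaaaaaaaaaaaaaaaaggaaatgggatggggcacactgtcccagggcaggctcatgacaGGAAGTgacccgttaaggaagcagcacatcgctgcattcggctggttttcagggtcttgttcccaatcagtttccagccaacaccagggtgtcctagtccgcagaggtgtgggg
GIMAP7: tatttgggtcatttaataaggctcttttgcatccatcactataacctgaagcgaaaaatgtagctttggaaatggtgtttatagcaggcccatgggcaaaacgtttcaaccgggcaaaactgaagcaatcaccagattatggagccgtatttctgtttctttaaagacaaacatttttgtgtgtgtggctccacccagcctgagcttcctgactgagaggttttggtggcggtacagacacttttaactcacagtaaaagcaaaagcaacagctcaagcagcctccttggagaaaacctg
The kB consensus occurred once, in GIMAP8, as GGAGTTCCCC on the strand shown, with its first base 104 bases before the start. It was found in 11.3% of all 34943 promoter windows. The ETS core, or its reverse complement ACTTCC, occurred once in GIMAP8 and GIMAP4 and at 2 places in GIMAP5 and GIMAP6, and 22.8% of all windows held it. The RUNX core TGTGGT was in none of the 7 windows, against 13.1% of all windows, and GIMAP7, GIMAP2 and GIMAP1 held none of these letters. GIMAP1 and GIMAP2, whose windows are not shown, were also called higher in the p50 and p52 knockouts. GIMAP6, which held the ETS core, was called higher in the p50 knockout alone, like GIMAP7, which did not. These matches describe the windows and say nothing of binding.

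In control cells GIMAP6 was the most abundant member on a scale per kilobase of exon, at 612 ± 32.8 normalised reads per kilobase (SD, n = 3). GIMAP7 followed at 343 ± 55.4 and GIMAP2 at 292 ± 26.5 per kilobase. GIMAP4 was at 114.5 ± 4.99, GIMAP8 at 85.0 ± 7.17, GIMAP5 at 62.9 ± 8.55 and GIMAP1 at 33.5 ± 4.39 per kilobase. The bands of 1 SD around the means of GIMAP7 and GIMAP2 overlapped, and the other steps of this order were larger than the SDs on either side. The order depends on the length used, the union of all annotated exons of a gene (6031 bases for GIMAP5, 1256 for GIMAP7). In normalised reads the control mean of GIMAP5 (379.5) was above those of GIMAP8 (356) and GIMAP4 (251). All 7 members passed the filter of a mean of at least 10 normalised reads over the 18 libraries, which 12381 genes passed. The sum of the 7 genes was lowest in the cRel-labelled libraries, at 3215 ± 210 normalised reads, and highest in the p50 knockout, at 6076 ± 223. It was 5673 ± 284 in the p52 knockout, 4916 ± 74.0 in the RelA knockout, 4766 ± 89.0 in the RelB-labelled libraries and 4587 ± 307 in the control. GIMAP6 made up between 45.6% and 53.7% of that sum in the 6 groups.

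**Figure D1:**
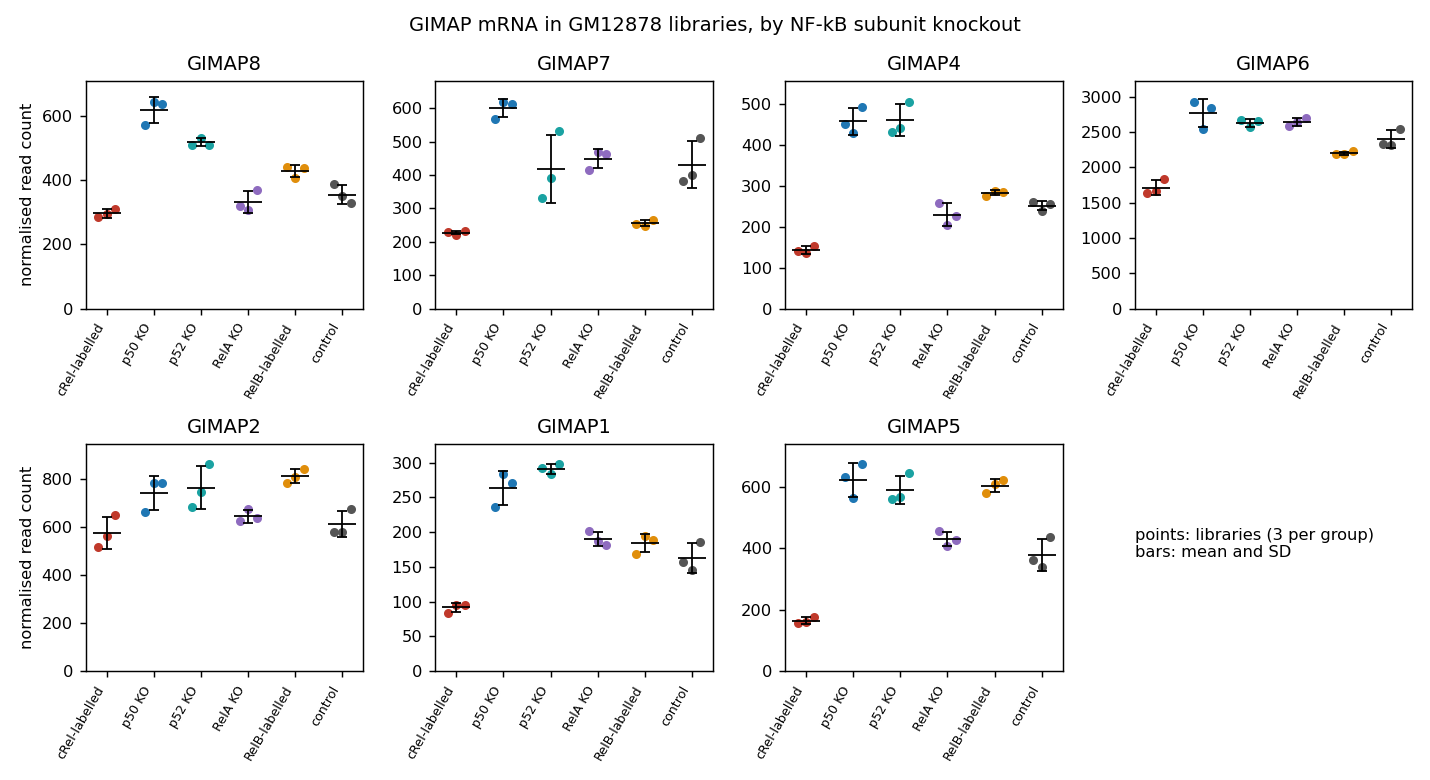
Normalised read count of each GIMAP gene (vertical axes, each starting at 0) in the 5 groups with an NF-kB subunit targeted and in the control; points are libraries and bars the mean and SD of 3. The cRel-labelled group has the lowest mean of each of the 7 panels, and the p50 or p52 knockout the highest in 6 of 7, with GIMAP2 highest in the RelB-labelled libraries.

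In the cRel-labelled libraries 5 of 7 members were lower than in control cells and 0 were higher. GIMAP5, which in mice and rats is required for the survival of T cells, fell to less than any library of another group. Its values were 158, 159 and 178 normalised reads in the cRel-labelled libraries, against 362, 339 and 438 in the control libraries. The cRel-labelled libraries all lay under the lowest control library, with a log2 fold change of -1.19 ± 0.09 (SE, n = 3 each; limma adjusted p = 2.9e-08). GIMAP7, whose protein in humans stimulates the GTPase activity of GIMAP2, had 228, 221 and 232 normalised reads in the cRel-labelled libraries, against 382, 401 and 511 in control libraries (log2 fold change -0.91, adjusted p = 4.6e-05). GIMAP4, which speeds T cell death in rodents, had 140, 135 and 153 in the cRel-labelled libraries, against 259, 239 and 255 in control libraries (-0.81, adjusted p = 5.8e-06). GIMAP1, which mice need to keep mature B and T cells, had 84.4, 95.2 and 95.7 in the cRel-labelled libraries, against 157, 145 and 186 in control libraries (-0.81, adjusted p = 2.6e-05). For each of these genes the groups did not overlap, and the lowest control library was above the highest cRel-labelled one. GIMAP6, an autophagy-related member, was lower by a smaller factor, with 1642, 1668 and 1834 in the cRel-labelled libraries against 2333, 2311 and 2543 in control libraries (log2 fold change -0.48, adjusted p = 2.0e-05).

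The remaining pair did not pass the test in the cRel-labelled libraries. GIMAP8, the largest protein of the family, with more than one GTPase domain, had 285, 295 and 312 normalised reads in the cRel-labelled libraries, against 388, 350 and 329 in control libraries. These groups did not overlap, and the log2 fold change of -0.26 had a 95% interval of -0.43 to -0.08 (adjusted p = 0.079). GIMAP2, a lipid droplet protein, had 518, 563 and 648 in the cRel-labelled libraries, against 580, 579 and 675 in control libraries, and the groups overlapped (log2 fold change -0.09, 95% interval -0.28 to 0.11). Over all genes tested in this comparison 1.92% were called lower and 4.17% higher, and the 3 libraries of each group did not overlap for 26.7% of genes, against 6 of the 7 members. The median log2 fold change was -0.81 over the members and -0.02 over all genes tested. Because these are bulk libraries, fewer cells that express a gene and less of its RNA per cell cannot be told apart.

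In the p50 knockout all 7 members were higher than in control cells. GIMAP4 had 451, 428 and 492 normalised reads in the p50 knockout, against 259, 239 and 255 in the control (log2 fold change 0.86 ± 0.10 SE, n = 3 each, limma adjusted p = 8.4e-07). GIMAP8 had 575, 646 and 640 in the p50 knockout, against 388, 350 and 329 in the control (0.80, adjusted p = 4.4e-07). GIMAP5 had 634, 565 and 674 in the p50 knockout, against 362, 339 and 438 in the control (0.72, adjusted p = 6.2e-06). In these 3 genes the lowest p50 knockout library was well above the highest control library. GIMAP1 had 236, 283 and 271 in the p50 knockout, against 157, 145 and 186 in the control (0.70, adjusted p = 3.2e-05). GIMAP7 had 569, 619 and 613 in the p50 knockout, against 382, 401 and 511 in the control (0.49, adjusted p = 0.0039). Both were also without overlap, though control replicate 3 lay closer to the knockout for GIMAP7 than the other two. The differences of GIMAP2 (661, 783 and 783 in the p50 knockout, 580, 579 and 675 in the control; log2 fold change 0.28, adjusted p = 0.024) and GIMAP6 (2930, 2541 and 2836 in the p50 knockout, 2333, 2311 and 2543 in the control; 0.21, adjusted p = 0.011) were smaller, and their groups overlapped by 1 library. Both calls were lost under some settings: GIMAP6 had an adjusted p of 0.055 with these 2 groups fitted alone and 0.06 without p50 knockout replicate 1, and GIMAP2 had 0.1 without p50 knockout replicate 2 or 3, 0.084 without control replicate 1 and 0.088 without control replicate 2. Over all genes tested 17.0% were called higher and 19.6% lower in the p50 knockout, and groups did not overlap for 45.0%, against 5 of 7 members. The members' median log2 fold change was 0.70, against -0.00 over all genes tested.

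The p52 knockout had 5 members higher and 0 lower. GIMAP4 had 432, 442 and 505 normalised reads in the p52 knockout, against 259, 239 and 255 in the control (log2 fold change 0.87 ± 0.10 SE, n = 3 each, limma adjusted p = 1.7e-07). GIMAP1 had 292, 283 and 297 in the p52 knockout, against 157, 145 and 186 in the control (0.84, adjusted p = 1.0e-06), and GIMAP5 had 562, 566 and 644 in the p52 knockout, against 362, 339 and 438 in the control (0.64, adjusted p = 7.1e-06). GIMAP8 was at 512, 533 and 512 in the p52 knockout, against 388, 350 and 329 in the control (0.55, adjusted p = 1.4e-05). None of these 4 genes had a p52 knockout library within the control range. GIMAP2 had 684, 744 and 860 in the p52 knockout, against 580, 579 and 675 in the control (0.32, adjusted p = 0.0079, and 0.056 without p52 knockout replicate 3). GIMAP6 had 2677, 2571 and 2651 in the p52 knockout, against 2333, 2311 and 2543 in the control, and did not pass (log2 fold change 0.14, adjusted p = 0.068). It passed with edgeR (adjusted p = 0.042), DESeq2 (0.046), quantile normalization (0.0025) and without control replicate 3 (0.026).

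GIMAP7 stood apart from the other members in the p52 knockout, with the widest spread relative to its mean of any member and group. Its 3 values there were 331, 391 and 531 normalised reads, against 382, 401 and 511 in the control, so the groups overlapped (log2 fold change -0.06, 95% interval -0.32 to 0.19). Without p52 knockout replicate 1 the sign turned to 0.09 and without control replicate 3 to 0.07. The 2 highest libraries, p52 knockout replicate 3 and control replicate 3, were also those whose deviations from their group mean leaned most to short transcripts (rank correlation of deviation and exon length -0.38 and -0.45), and GIMAP7 has the shortest exon length of the family at 1256 bases; the part of this in the GIMAP7 values was not tested. Over all genes tested 24.5% were called higher and 26.4% lower in the p52 knockout, and groups did not overlap for 52.5%, against 6 of 7 members. The members' median was 0.55, against 0.00 over all genes.

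In the RelA knockout 0 of 7 members were called in either direction, with 2 at an unadjusted p under 0.05 in limma and 0 called by edgeR or DESeq2. GIMAP1 had 202, 188 and 182 normalised reads in the RelA knockout, against 157, 145 and 186 in the control, and the groups overlapped (log2 fold change 0.23, limma adjusted p = 0.22). GIMAP6 had 2581, 2645 and 2693 in the RelA knockout, against 2333, 2311 and 2543 in the control (0.14, adjusted p = 0.20), and was the 1 member without overlap. GIMAP5 had 456, 409 and 428 in the RelA knockout, against 362, 339 and 438 in the control (0.19, 95% interval -0.01 to 0.39). GIMAP4 had 259, 203 and 226 in the RelA knockout, against 259, 239 and 255 in the control (-0.14, 95% interval -0.33 to 0.06), and GIMAP8 had 319, 307 and 371 in the RelA knockout, against 388, 350 and 329 in the control (-0.10, 95% interval -0.27 to 0.08). GIMAP7 had 415, 467 and 463 in the RelA knockout, against 382, 401 and 511 in the control, and its value of 0.07 turned to -0.015 without control replicate 1. GIMAP2 had 624, 674 and 636 in the RelA knockout, against 580, 579 and 675 in the control (0.08, 95% interval -0.12 to 0.28). Over all genes tested 2.92% were called higher and 2.63% lower in the RelA knockout, and 22.0% did not overlap.

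The RelB-labelled libraries held calls in both directions, with 3 members higher and 1 lower. GIMAP5 had 580, 609 and 622 normalised reads in the RelB-labelled libraries, against 362, 339 and 438 in the control (log2 fold change 0.68 ± 0.09 SE, n = 3 each, limma adjusted p = 1.5e-06). GIMAP2 had 783, 807 and 842 in the RelB-labelled libraries, against 580, 579 and 675 in the control (0.41, adjusted p = 6.1e-04), and GIMAP8 had 440, 406 and 438 in the RelB-labelled libraries, against 388, 350 and 329 in the control (0.27, adjusted p = 0.0076). GIMAP7 was the member that fell, with 254, 247 and 265 in the RelB-labelled libraries, against 382, 401 and 511 in the control (-0.74 ± 0.12 SE, adjusted p = 1.7e-05). None of these 4 genes overlapped the control. GIMAP4 (276, 288 and 284 in the RelB-labelled libraries, 259, 239 and 255 in the control) and GIMAP6 (2190, 2190 and 2225 in the RelB-labelled libraries, 2333, 2311 and 2543 in the control) did not overlap either, but did not pass the test (adjusted p = 0.12 and 0.088). GIMAP1 had 169, 195 and 189 in the RelB-labelled libraries, against 157, 145 and 186 in the control, and overlapped. Its log2 fold change of 0.19 (adjusted p = 0.13) was -0.029 after quantile normalization and passed without control replicate 3 (0.29, adjusted p = 0.028). This comparison had the most calls of the 5 over all genes, with 33.1% higher, 34.7% lower and 70.0% without overlap, against 6 of 7 members without overlap. The members' median log2 fold change was 0.19, against -0.00 over all genes.

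**Figure D2:**
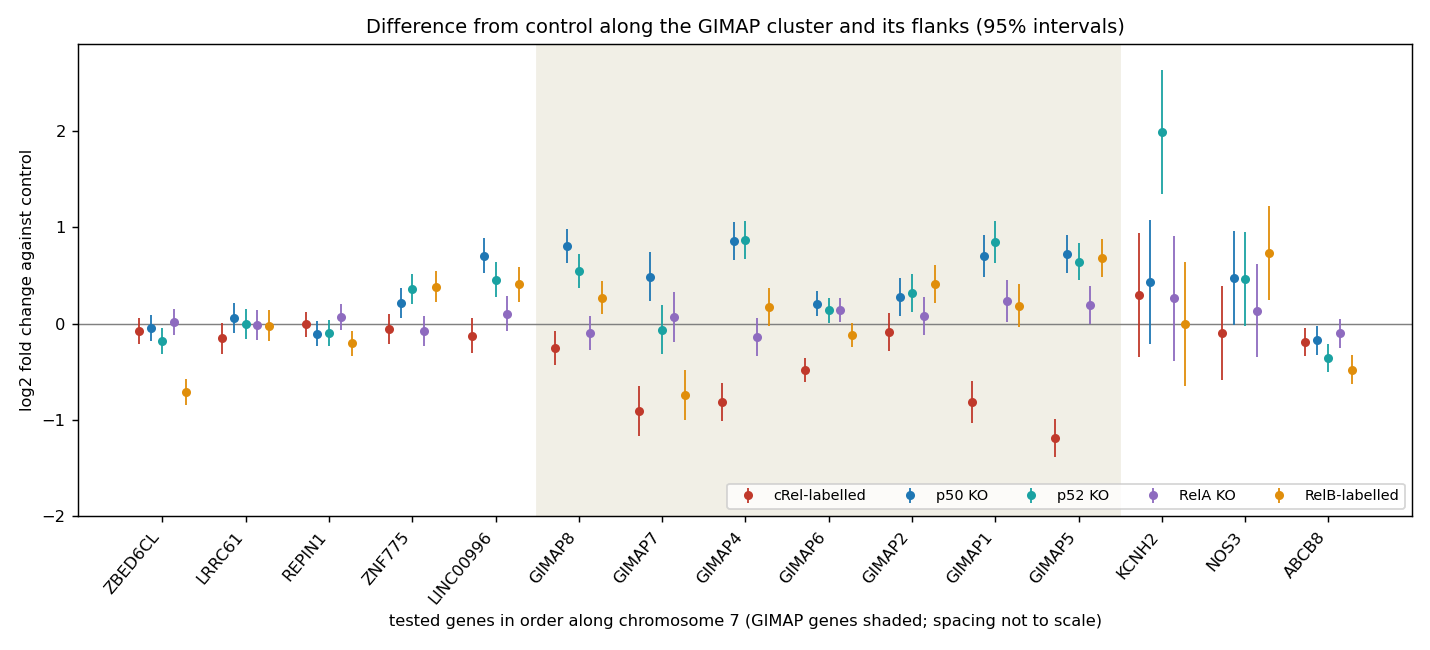
Log2 fold change against control (vertical axis, with 95% intervals) of the tested genes in their order along chromosome 7, one colour for each group with a subunit targeted; the shaded genes are the GIMAP cluster and spacing is not to scale. The cRel-labelled points are lowest at GIMAP5 (-1.19), and the p50 and p52 knockout points lie above 0.5 at GIMAP8, GIMAP4, GIMAP1 and GIMAP5.

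Contrasts that leave out the control mean, from the same fit of 18 libraries, tested the differences between groups directly. Any difference among the 5 groups with a subunit targeted was called for 7 of 7 members, against 78.8% of all genes, with the smallest p for GIMAP5 (adjusted p = 2.3e-13) and the largest for GIMAP2 (adjusted p = 3.6e-04; limma F-test). The cRel-labelled libraries were lower than the p50 knockout in 7 of 7 members, where 15.3% of all genes were lower, and lower than the p52 knockout in 7 of 7, where 22.5% were. They were lower than the RelA knockout in 5 of 7 members, against 4.75% of all genes, with GIMAP8 (log2 fold change -0.16, adjusted p = 0.30) and GIMAP2 (-0.17, adjusted p = 0.34) not called. They were lower than the RelB-labelled libraries in 6 of 7 members, against 32.4% of all genes, and the exception was GIMAP7 (-0.17, 95% interval -0.42 to 0.09). For GIMAP5 the direct differences were the widest of the family, at -1.91 from the p50 knockout, -1.83 from the p52 knockout, -1.38 from the RelA knockout and -1.87 from the RelB-labelled libraries.

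The p50 and p52 knockouts differed in 2 of 7 members, where 22.2% of all genes differed. GIMAP7 was higher in the p50 knockout, with a mean of 600 ± 27.3 normalised reads against 417 ± 103 in the p52 knockout (log2 fold change 0.55, limma adjusted p = 0.0024). GIMAP8 was also higher in the p50 knockout, at 620 ± 39.4 against 519 ± 12.1 in the p52 knockout (adjusted p = 0.033). For GIMAP4 the difference was -0.01 with a 95% interval of -0.20 to 0.19. The intervals of the other members also held 0, and ran from -0.37 to 0.07 for GIMAP1, -0.12 to 0.27 for GIMAP5, -0.23 to 0.16 for GIMAP2 and -0.06 to 0.20 for GIMAP6.

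In this paragraph the shares of all genes count both directions, unlike those given above for the cRel-labelled libraries. The p50 knockout was higher than the RelA knockout in 5 of 7 members (39.2% of all genes differed), with GIMAP4 at 457 ± 32.5 normalised reads in the p50 knockout and 229 ± 27.7 in the RelA knockout (log2 fold change 1.00). The p52 knockout was also higher than the RelA knockout in 5 of 7 (52.5% of all genes differed), all but GIMAP7 and GIMAP6. Against the RelB-labelled libraries the p50 knockout was higher in 5 of 7 members (53.1% of all genes differed), with GIMAP7 at a log2 fold change of 1.23, and GIMAP5 (0.04) and GIMAP2 (-0.13) not called. The p52 knockout was higher than the RelB-labelled libraries in 5 of 7 (45.4% of all genes differed), and GIMAP5 (-0.03) and GIMAP2 (-0.09) were again not called. The RelA knockout differed from the RelB-labelled libraries in 6 of 7 members (67.2% of all genes differed). GIMAP7 (0.81) and GIMAP6 (0.26) were higher in the RelA knockout, and GIMAP5 (-0.49), GIMAP8 (-0.37), GIMAP2 (-0.33) and GIMAP4 (-0.31) were lower.

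The order of the groups was not shared by all members. By mean level, GIMAP5 ran from the cRel-labelled libraries (165 normalised reads) through the control (379.5), the RelA knockout (431), the p52 knockout (591) and the RelB-labelled libraries (604) to the p50 knockout (624). Only the steps above the cRel-labelled libraries and above the RelA knockout were free of overlap. GIMAP1 had the cRel-labelled libraries lowest, then the control, RelB-labelled libraries and RelA knockout overlapping in turn, and the p50 and p52 knockouts highest. GIMAP4 had the cRel-labelled libraries lowest, the RelA knockout overlapping the control, the RelB-labelled libraries just above, and the p50 and p52 knockouts overlapping at the top. GIMAP8 had the cRel-labelled libraries, the RelA knockout and the control overlapping in turn, followed by clear steps to the RelB-labelled libraries, the p52 knockout and the p50 knockout. GIMAP6 had clear steps from the cRel-labelled to the RelB-labelled libraries and the control, above which the other 3 groups overlapped in turn. GIMAP7 had the cRel-labelled and RelB-labelled libraries lowest, the p52 knockout, control and RelA knockout overlapping in turn, and the p50 knockout highest. For GIMAP2 every group overlapped its neighbour.

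GIMAP5 and GIMAP7 were called in opposite directions in the RelB-labelled libraries, and their ratio was followed across the groups. The ratio of GIMAP5 to GIMAP7 normalised reads was 2.29, 2.47 and 2.35 in the RelB-labelled libraries, against 0.948, 0.845 and 0.857 in the control. It was 1.70, 1.45 and 1.21 in the p52 knockout, 1.11, 0.912 and 1.10 in the p50 knockout, 1.10, 0.876 and 0.925 in the RelA knockout and 0.694, 0.719 and 0.766 in the cRel-labelled libraries. The cRel-labelled libraries were low in both genes, the p50 knockout high in both, and the RelB-labelled libraries high in GIMAP5 and low in GIMAP7. These ratios compare read counts of genes of unequal length, so only their differences between groups are read here.

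**Figure D3:**
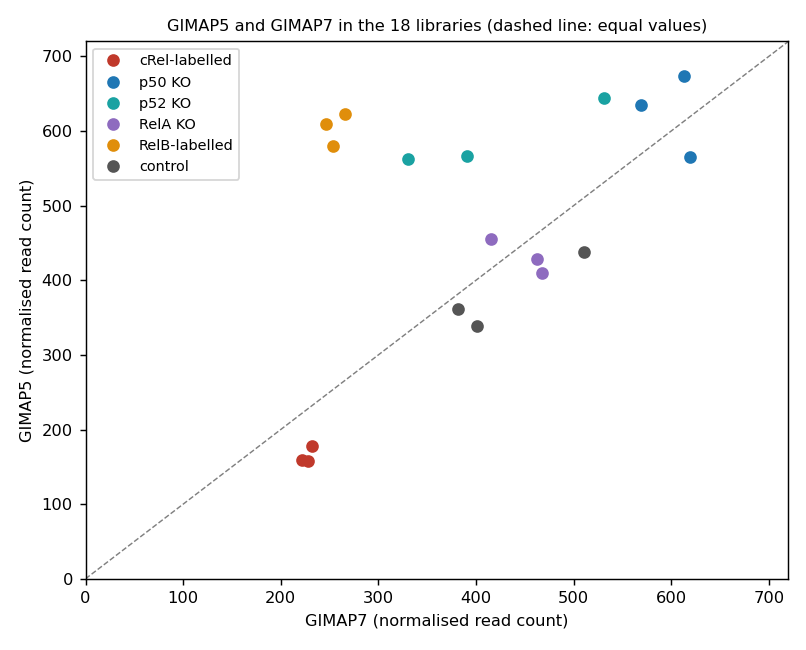
GIMAP5 (vertical) against GIMAP7 (horizontal) in normalised reads for the 18 libraries, coloured by group, with a dashed line at equal values. The 3 RelB-labelled libraries sit far above the line at ratios of 2.29 to 2.47, the p52 knockout libraries lie between 1.21 and 1.70, and the cRel-labelled libraries are in the low corner under the line.

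The genes around the cluster were read from a list of the 6 nearest rows of the table on each side, of which 8 passed the filter. Of these 8, 0 were called in the cRel-labelled libraries or the RelA knockout, 2 were higher and 0 lower in the p50 knockout, 3 higher and 2 lower in the p52 knockout, and 3 higher and 3 lower in the RelB-labelled libraries. Their median log2 fold changes were -0.08 for cRel-labelled, 0.14 for p50 knockout, 0.17 for p52 knockout, 0.04 for RelA knockout and -0.01 for RelB-labelled libraries. Among all genes tested, calls in either direction made up 6.09% (cRel-labelled), 36.7% (p50), 50.8% (p52), 5.55% (RelA) and 67.8% (RelB-labelled). LINC00996, a long non-coding RNA gene and the measured gene nearest to GIMAP8 outside the family, was higher in the same 3 groups as GIMAP8. It averaged 809 ± 53.7 normalised reads in the p50 knockout, 681 ± 25.0 in the p52 knockout and 658 ± 30.5 in the RelB-labelled libraries, against 497 ± 41.5 in the control (log2 fold changes 0.70, 0.46 and 0.41; largest limma adjusted p = 3.2e-04). It was not called in the cRel-labelled libraries, at 456 ± 52.2 normalised reads (adjusted p = 0.43). ZNF775, the next gene out, a zinc-finger gene, rose by less in the same 3 groups (0.21, 0.35 and 0.38). Farther out, ZBED6CL was lower in the RelB-labelled libraries (-0.71) and the p52 knockout (-0.18), and LRRC61 was called in none. On the other side of the cluster KCNH2, a potassium channel gene at only 10.2 ± 1.21 normalised reads in the control, averaged 43.3 ± 2.80 in the p52 knockout. NOS3, the endothelial nitric oxide synthase gene, was higher in the RelB-labelled libraries, at 45.1 ± 6.60 against 27.4 ± 8.59 in the control. ABCB8 was lower in the p52 knockout (-0.36) and the RelB-labelled libraries (-0.48), and REPIN1 was lower in the RelB-labelled libraries (-0.20).

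Across the 18 libraries the 21 pairs of members had Pearson correlations of log2 values between 0.25 and 0.94, with a median of 0.77. The points share their groups, and after subtraction of each group's mean the correlations lay between -0.19 and 0.77 with a median of 0.32. GIMAP4 and GIMAP1 were the most alike over 18 libraries (0.94), and GIMAP7 and GIMAP2 the least (0.25). With group means subtracted GIMAP7 and GIMAP2 had the highest correlation of the 21 pairs (0.77). Among 9847 genes with a mean of at least 100, the gene most like GIMAP1 or GIMAP5 was another member (GIMAP4, and GIMAP1). GIMAP4 came next to GIMAP1 and then to LCP2 (0.93), which encodes the lymphocyte adaptor SLP-76, and FGFRL1 (0.88). GIMAP8 was most like ANKRD27 (0.94) and its neighbour LINC00996 (0.93). GIMAP6 was most like KIF26B (0.91), GIMAP1 and CMTM3 (0.87), and GIMAP7 most like STX10 (0.86), KIAA0930 (0.86) and GIMAP6 (0.85). Outside the family, FGFRL1 and PTP4A3 (both 0.86) were nearest to GIMAP1, and PRDX2 (0.88) and SPRR2A (0.87) to GIMAP5. Over the 18 libraries GIMAP2 was most like F11R (0.93) and IGBP1 (0.92), and its nearest relative, GIMAP5, was at place 438 (0.79). With group means subtracted GIMAP2 correlated with GIMAP7 (0.77), GIMAP1 (0.67) and GIMAP5 (0.57), whereas GIMAP8 lay between -0.19 and 0.12 with the other members.

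**Figure D4:**
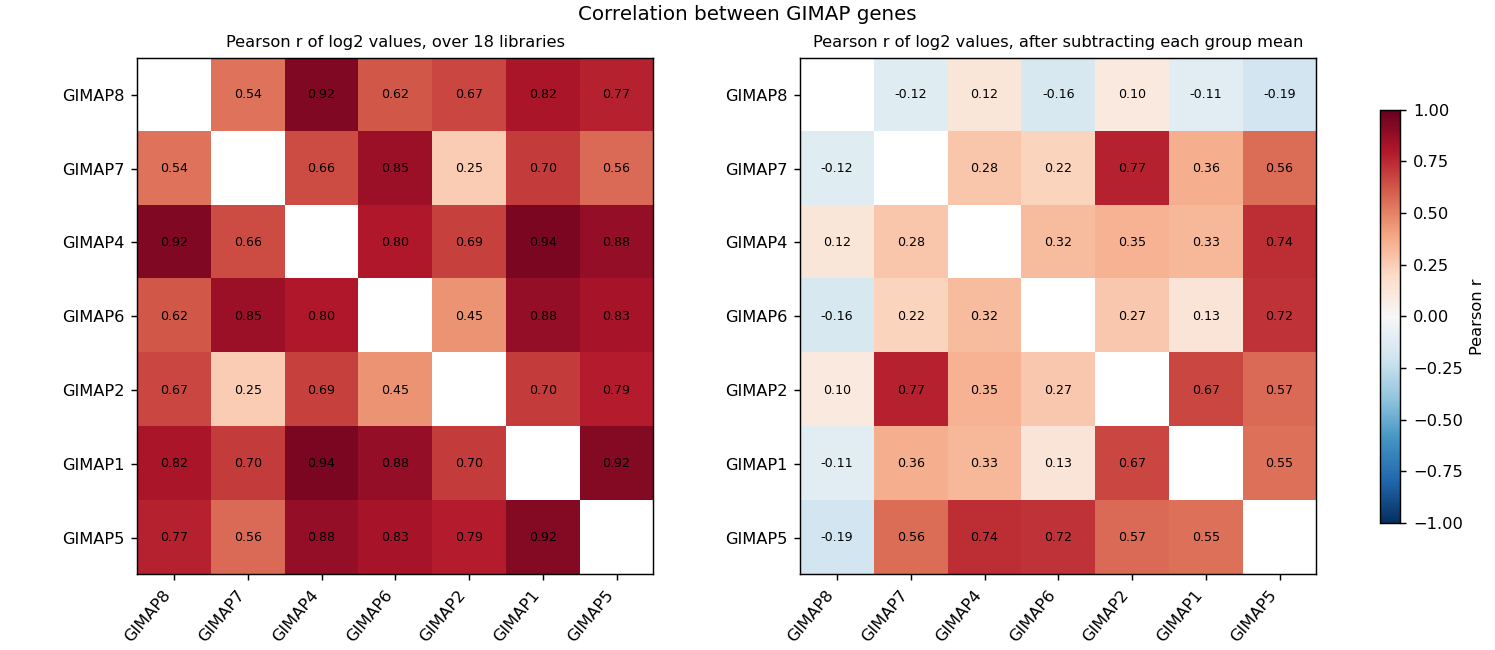
Pearson r of log2 values between each pair of GIMAP genes over the 18 libraries (left) and after subtraction of each group's mean (right), with genes in chromosome order and colour from -1 to 1. On the left all pairs are positive, between 0.25 and 0.94, and on the right they lie between -0.19 and 0.77, with GIMAP8 between -0.19 and 0.12 against the other members.

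Genes that other work ties to GIMAP proteins, such as BCL2 relatives, autophagy proteins and GSK3B, did not move in 1 direction. Of 12 tested, 1 was higher and 1 lower in the cRel-labelled libraries, 1 higher and 4 lower in the p50 knockout, 2 higher and 3 lower in the p52 knockout, 0 higher and 1 lower in the RelA knockout, and 4 higher and 6 lower in the RelB-labelled libraries. Their median log2 fold changes lay between -0.18 and 0.03 in the 5 comparisons, where those of all genes tested lay between -0.02 and 0.00. The share of all genes called in either direction was 6.09% (cRel-labelled), 36.7% (p50), 50.8% (p52), 5.55% (RelA) and 67.8% (RelB-labelled). In the cRel-labelled libraries BCL2L1, which encodes the survival protein BCL-xL, was lower, at 1363 ± 63.4 normalised reads against 2176 ± 117 in the control (log2 fold change -0.67, limma adjusted p = 1.7e-06). BCL2L11, which encodes the death-promoting protein BIM, was higher there, at 2406 ± 65.1 against 1523 ± 155 in the control (0.66, adjusted p = 1.3e-04). BCL2, a survival gene, was higher in the RelB-labelled libraries (log2 fold change 1.51), the p52 knockout (0.82) and the p50 knockout (0.74). These are the 3 groups with GIMAP5 higher, and also those with the most calls over all genes. In the cRel-labelled libraries, where GIMAP5 was lowest, BCL2 was not called (0.25). BCL2L1 was lower in each of the other groups as well, by log2 fold changes of -0.63 (p50 knockout), -0.47 (p52 knockout), -0.29 (RelA knockout) and -0.68 (RelB-labelled). BCL2L11 was lower in the RelB-labelled libraries (-1.07) and the p50 knockout (-0.32). HSPA8, a constitutive chaperone gene, was lower in the p52 knockout (-0.89), the RelB-labelled libraries (-0.80) and the p50 knockout (-0.48).

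Of 14 tested genes of lymphocyte quiescence and homing, 1 was higher and 2 lower in the cRel-labelled libraries, 4 higher and 3 lower in the p50 knockout, 7 higher and 3 lower in the p52 knockout, 3 higher and 0 lower in the RelA knockout, and 6 higher and 6 lower in the RelB-labelled libraries. Their medians lay between 0.04 and 0.36, where those of all genes tested lay between -0.02 and 0.00. The share of all genes called in either direction was 6.09% (cRel-labelled), 36.7% (p50), 50.8% (p52), 5.55% (RelA) and 67.8% (RelB-labelled). KLF2, a quiescence factor, was lower in 4 groups, by log2 fold changes of -0.86 (cRel-labelled), -1.10 (p50 knockout), -0.70 (p52 knockout) and -0.92 (RelB-labelled), and higher in the RelA knockout (0.52). S1PR1, the receptor for egress from lymphoid organs, was lower in the p50 (-1.17) and p52 (-1.18) knockouts, the RelB-labelled libraries (-1.10) and, by less, the cRel-labelled libraries (-0.42). CCR7, a homing receptor, was higher in the RelB-labelled libraries (0.94) and the p52 (0.74), p50 (0.29) and RelA (0.29) knockouts. TCF7, a lymphocyte transcription factor, was higher in the RelB-labelled libraries (1.20) and the p52 (0.80) and RelA (0.22) knockouts.

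Of 15 tested lymphocyte transcription factors, 1 was higher and 3 lower in the cRel-labelled libraries, 2 higher and 6 lower in the p50 knockout, 1 higher and 6 lower in the p52 knockout, 2 higher and 0 lower in the RelA knockout, and 5 higher and 6 lower in the RelB-labelled libraries. Their medians lay between -0.15 and 0.06, where those of all genes tested lay between -0.02 and 0.00. Of all genes, the share called either way was 6.09% (cRel-labelled), 36.7% (p50), 50.8% (p52), 5.55% (RelA) and 67.8% (RelB-labelled). GATA3 was lower in 4 groups, at 88.1 ± 13.2 normalised reads in the RelB-labelled libraries, 106 ± 16.3 in the p50 knockout, 218.5 ± 10.6 in the p52 knockout and 308 ± 20.02 in the cRel-labelled libraries, against 444 ± 46.5 in the control. MYB was lower in the RelB-labelled libraries (log2 fold change -0.74), the p50 (-0.73) and p52 (-0.71) knockouts and the cRel-labelled libraries (-0.28), and higher in the RelA knockout (0.34). EBF1, a B-lineage factor, was higher in all 5 groups, by 0.41 (cRel-labelled), 0.40 (p50 knockout), 0.43 (p52 knockout), 0.23 (RelA knockout) and 1.09 (RelB-labelled). IKZF1 was lower in the p52 knockout (-0.69), the RelB-labelled libraries (-0.57) and the p50 knockout (-0.26).

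Because T cells are a known site of GIMAP expression, markers of other cell types were read beside the GIMAP values. All 8 B cell markers were tested, and their sum lay between 59571 and 76052 normalised reads in the 18 libraries. Single markers moved within that sum. In the cRel-labelled libraries 1 was higher and 0 lower, in the p50 knockout 2 higher and 1 lower, and in the p52 knockout 2 higher and 2 lower. The RelA knockout had 0 higher and 1 lower, and the RelB-labelled libraries 4 higher and 1 lower. Of 17 T and NK cell markers 14 were measured and 7 passed the filter, and CD3G, CD8A and CD8B were not analysed here. CD3D averaged at most 0.896 normalised reads in any group and CD3E at most 21.6. Of the 7 tested, 0 were higher and 1 lower in the cRel-labelled libraries, 0 higher and 1 lower in the p50 knockout, 0 higher and 2 lower in the p52 knockout, 0 either way in the RelA knockout, and 2 higher and 2 lower in the RelB-labelled libraries. Among all genes, calls in either direction made up 6.09% (cRel-labelled), 36.7% (p50), 50.8% (p52), 5.55% (RelA) and 67.8% (RelB-labelled). The sum of the T and NK cell markers was 424 to 452 normalised reads in cRel-labelled libraries, 515 to 560 in p50 knockout libraries, 577.5 to 661 in p52 knockout libraries, 528 to 613 in RelA knockout libraries, 817 to 863 in RelB-labelled libraries and 499.8 to 663 in control libraries. NKG7, a cytotoxic granule gene, made up most of it, and was lower in the cRel-labelled libraries (log2 fold change -0.44) and higher in the RelB-labelled libraries (0.73). Of 8 monocyte and macrophage markers 7 were measured and 2 passed the filter, CSF1R and ITGAM, while CD14 averaged at most 1.93. The sum of these markers was 565 to 656 in cRel-labelled libraries, 827 to 904 in p50 knockout libraries, 837 to 945.5 in p52 knockout libraries, 462 to 505 in RelA knockout libraries, 908 to 983 in RelB-labelled libraries and 516 to 540 in control libraries. This sum was highest in the 3 groups in which GIMAP5 was called higher. It was also above the control in the cRel-labelled libraries, where GIMAP5 was lowest. The 2 tested markers were both called higher in the p50 knockout, the p52 knockout and the RelB-labelled libraries. In these groups 17.0%, 24.5% and 33.1% of all genes were called higher. CSF1R averaged 653, 640 and 747 there, against 389 in the control, and ITGAM 212, 240 and 197, against 122 in the control. The 2 markers parted in the cRel-labelled libraries, where 1 was called higher. CSF1R averaged 355 in the cRel-labelled libraries, and ITGAM was highest there, at 252. Of 6 endothelial markers VWF alone was measured, at a mean of at most 9.14, and did not pass. The part of these markers in the GIMAP differences was not tested.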

How the data were processed

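PolyA RNA of GM12878 cells was sequenced as 18 directional libraries, per the labels' protocols. Per the submitters' processing notes, STAR 2.5.2b, featureCounts 1.5.1, DESeq2 1.14.1 and build GRCh37 were used. The annotation release, strand setting and filters were not given in the sources used here. The authors deposited a signal per gene, the normalised read count. Each of the 308790 values was a whole number of reads (within 0.0001) multiplied by 1 factor per library of 0.646 to 1.46, so 100.0% of values gave whole reads, 15179664 to 37473129 per library. The error given with a mean is the SD between the libraries of its group. The SE of a log2 fold change comes from the limma fit. Its estimate of spread draws on all 18 libraries and on other genes, beyond the 2 groups compared.

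The main test was limma 3.58.1 in R 4.3.3, with an intensity trend, on log2(value + 1), which understates folds of low genes. It was 1 fit of 18 libraries over 12381 genes, those averaging 10 or more, two-sided, with Benjamini-Hochberg adjustment over all genes tested and calls at an adjusted p under 0.05. The 5 comparisons with the control share its 3 libraries. The 10 direct contrasts and an F-test among the 5 groups do not use the control mean. The control libraries still enter their estimate of spread and the filter. The alternatives were edgeR 4.0.16 (quasi-likelihood, TMM) and DESeq2 1.42.0 on the recovered reads, quantile normalization, pseudocounts of 0.5 and 5, no filter or a mean of at least 100, only the groups compared, a replicate block, and leaving out each library. Over all genes edgeR called 814 (cRel-labelled), 4588 (p50), 6381 (p52), 671 (RelA) and 8414 (RelB-labelled), where limma called 754, 4539, 6295, 687 and 8391. The fit was also run on simulated counts, with changes in the p50 group alone and the same relative spread for every gene. That setting is simpler than these libraries, and no result here rests on it. Exon lengths are those of GENCODE, and gene order, promoters and their sequences those of RefSeq; all 7 members matched a promoter. No deposited coordinate was used.

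The members and all gene lists were chosen with earlier results of these data known. The genes named are all members, the 6 nearest genes on each side, up to 2 called genes with the smallest p per list and comparison, the 2 genes outside the family with the highest correlation to each member, the subunit genes, and the cell type markers.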

Additional observations from a re-analysis of the deposited data

How the results depend on the processing

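The counts of members called kept their direction and stayed within 1.5 times the main count under every setting that was run: 5 to 6 in the cRel-labelled libraries, 6 to 7 in the p50 knockout, 4 to 6 in the p52 knockout, 4 to 5 in the RelB-labelled libraries, 0 in the RelA knockout and 7 for the differences among the 5 groups. Of 350 member values under other settings, 341 kept direction and side of the threshold, as did 199 of 210 with 1 library left out. Direction turned for GIMAP1 in the RelB-labelled libraries under quantile normalization (-0.029), for GIMAP7 in the p52 knockout with 1 library left out (range -0.250 to 0.090) and for GIMAP7 in the RelA knockout (range -0.015 to 0.195); the cause was not tested. With control replicate 3, p52 knockout replicate 3 and RelA knockout replicate 2 left out, a choice made after seeing the data, GIMAP8 passed in the cRel-labelled libraries (-0.31, adjusted p = 0.045), as did GIMAP6 in the p52 knockout (adjusted p = 0.04) and GIMAP1 in the RelB-labelled libraries (adjusted p = 0.033). Deviations of targeted and control libraries with the same replicate number had correlations of -0.0995 to 0.397. These were above 0.1 for all 3 numbers in 0 of 5 groups, but positive for all 3 in the p52 knockout and the RelB-labelled libraries. Targeted groups were not compared with each other in this way. With the replicate number as a block GIMAP6 in the p52 knockout passed (limma adjusted p = 0.043) and no other member's call changed. The block raised the calls over all genes from 754 to 940 in the cRel-labelled libraries and from 687 to 834 in the RelA knockout. Over all genes, 754 calls in the cRel-labelled libraries were 476 without replicate 2, 448 without replicate 3 and 481 without control replicate 3, and 687 calls in the RelA knockout were 442 without control replicate 1, 452 without RelA knockout replicate 1 and 413 without replicate 3. The lowest count behind a member's value was 81 reads, for GIMAP1.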
